A study of Zea mays with 36 samples.

Results

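The MADS box genes of maize were examined in the vegetative shoot apical meristem, with most attention to zmm19. A spot was taken as a member where the platform's gene symbol or a synonym was zmm, zag or mads followed by a number. This rule found 24 of 35200 spots, 16 on the array named SAM1 and 8 on the array named SAM3, and they stood for 10 genes. The 9 genes on SAM1 were ZAG1, zag2, ZAG3, zmm16, zmm24, zmm27, zmm29, zmm31 and MADS67. The 6 genes on SAM3 were zmm19, ZAG1, zmm16, zmm27, zmm31 and MADS67, so that 5 genes lay on both arrays. The set was selected on the genotype ratio of zmm19 in these SAM3 hybridisations, which was already known. The ratios between genotypes are therefore given as a description, with no test.

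MADS box proteins are transcription factors that bind DNA as dimers and larger complexes through a conserved domain. In flowering plants they specify floral organs, floral meristems and the time of flowering, and the classes of the floral organ model (A, B, C and E) are mostly MADS box genes. A vegetative apex makes leaves and no flowers, although genes of the SVP clade are known from vegetative tissue. zmm19 belongs to that clade: its misexpression in the inflorescence gives the Tunicate phenotype of pod corn, in which leaf-like glumes enclose each kernel.

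The study compared meristems of rgd2-R mutant seedlings with those of non-mutant seedlings. rgd2-R is an allele of ragged seedling2, which encodes an ARGONAUTE7-like protein of the trans-acting small RNA pathway. Mutant plants came from 5 generations of introgression into the inbred Mo17. Both genotypes grew in the same controlled conditions and were harvested 14 days after germination, when meristem cells were laser microdissected. Total RNA was amplified in 2 rounds and labelled by amino allyl incorporation. Each hybridisation held rgd2-R and non-mutant RNA together. There were 6 replicates on each array, which the labels call biological. Replicates 1 to 3 had the mutant RNA in Cy3 and replicates 4 to 6 had it in Cy5. A low, a mid and a high reading were deposited for each of the 12 hybridised replicates, which makes 36 samples. The sources do not say how many plants a replicate holds, and the spread given is that between these replicates. In such RNA, fewer cells of a type and less RNA per cell cannot be told apart. No sequence of the spotted ESTs (short cDNA clones) was used here, so signal from related MADS box transcripts on the same spot was not told apart.

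The labelled tissue was checked against markers. The best-measured spots of kn1, the homeobox gene that defines the meristem, lay above local background by more than 100 units in 6 of 6 replicates, with a non-mutant median of 4852 units for spot 4915 on SAM1 and 3333 units for spot 14467 on SAM3. Of the other kn1 spots, 11267 on SAM1 and 2087 on SAM3 also exceeded 100 units in 6 of 6 channels of both genotypes. Spot 8054 on SAM1 did so in 6 of 6 non-mutant and 4 of 6 rgd2-R channels. Spot 12088 on SAM3 did so in 0 of 6 of either genotype. Green leaf markers were mixed on SAM1. The photosystem gene psan1 and rbcs1 spot 9535 exceeded 100 units in 0 of 6 replicates of either genotype. In contrast, me3 spot 2772 exceeded it in 6 of 6 of both, and rbcs1 spot 16448 in 5 of 6 non-mutant and 4 of 6 rgd2-R channels. On SAM3, me3 spot 2456 exceeded it in 5 of 6 non-mutant and 6 of 6 rgd2-R channels. Leaf primordium markers also carried signal. On SAM1, yab9, yab10, yab14, ns2 and rs2 exceeded 100 units in 6 of 6 channels of both genotypes. Their non-mutant medians ran from 398 (ns2) to 931 (yab9) units. On SAM3 as labelled, yab9, yab10, ns2 and rs2 did so too, while yabby15 spot 6088 passed in 3 of 6 non-mutant and 1 of 6 rgd2-R channels. On SAM3, replicate 3 went against its dye labels. Its low and mid readings correlated at 0.86 with each other and at -0.91 each with its high reading. The Cy3 background was higher than the Cy5 background in 34 of 36 readings of the series, and the 2 exceptions were those low and mid readings. SAM3 values are therefore given with the dyes as labelled and with the channels of these 2 readings exchanged.

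On SAM3, zmm19 was lower in rgd2-R than in non-mutant meristems on average, and the size depended on the spot and on the treatment of replicate 3. Its 3 spots are numbered 3371, 10726 and 5370. Averaged over them, the log2 ratio of rgd2-R over non-mutant was -0.42, 0.00, 0.10, -0.18, -0.51 and -0.74 in replicates 1 to 6. The mean was -0.29 ± 0.32 (SD, n = 6), with a standard error of 0.10 in the limma fit, which corresponds to 81.8% of the non-mutant level. Thus 4 of 6 replicates lay below 0, and replicates 2 and 3 lay at or just above it. After the exchange replicate 3 became -0.48, and the mean became -0.39 ± 0.26 (SD, n = 6; standard error 0.10), which is 76.5% of the non-mutant level. Then 5 of 6 replicates lay below 0, and replicate 2 alone did not.

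The 3 spots differed in the size of their ratios and varied alike over the replicates. Spot 3371 gave log2 ratios of -0.89, -0.12, 0.00, -0.37, -0.67 and -0.86 in replicates 1 to 6, with a mean of -0.48 ± 0.38 (SD, n = 6; standard error 0.13). After the exchange replicate 3 of this spot was -0.62 and the mean was -0.59 ± 0.30 (SD, n = 6; standard error 0.12), which put all 6 replicates below 0. Replicate 2 was the closest to 0 in that setting, and replicates 1 and 6 were the lowest.

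Spot 10726 gave log2 ratios of -0.20, 0.02, 0.17, -0.19, -0.59 and -0.64, with a mean of -0.24 ± 0.32 (SD, n = 6; standard error 0.08). Fitted without the dye term, the standard error of this spot was 0.11. With replicate 3 exchanged to -0.25 its mean was -0.31 ± 0.25 (SD, n = 6; standard error 0.08), with 5 of 6 replicates below 0. Replicates 5 and 6 were lower than the other 4 under either treatment.

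Spot 5370 gave log2 ratios of -0.16, 0.11, 0.13, 0.04, -0.27 and -0.72, with a mean of -0.15 ± 0.32 (SD, n = 6; standard error 0.10). With replicate 3 exchanged to -0.58 its mean was -0.26 ± 0.33 (SD, n = 6; standard error 0.13). Only 3 of 6 replicates lay below 0 as labelled and 4 of 6 after the exchange. Without replicate 6 the limma estimate as labelled was -0.04. That estimate weights both dye orientations equally, so it can differ from the plain mean of the remaining replicates. Across the 6 replicates the spots correlated pairwise at 0.80 to 0.88 as labelled and at 0.69 to 0.72 after the exchange. These correlations are descriptions, since spots of one hybridisation share their RNA and their dyes.

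Single readings show where replicate 3 divides. For spot 3371 its readings were 0.56 (low), 0.37 (mid) and -0.93 (high) on the log2 scale as labelled. For spot 5370 they were 0.41, 0.65 and -0.68 in the same order. For spot 10726 they were 0.47, 0.16 and -0.13. In all 3 spots the low and mid readings were positive and the high reading was negative, so the mean near 0 in replicate 3 averages readings of opposite sign.

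**Figure D1:**
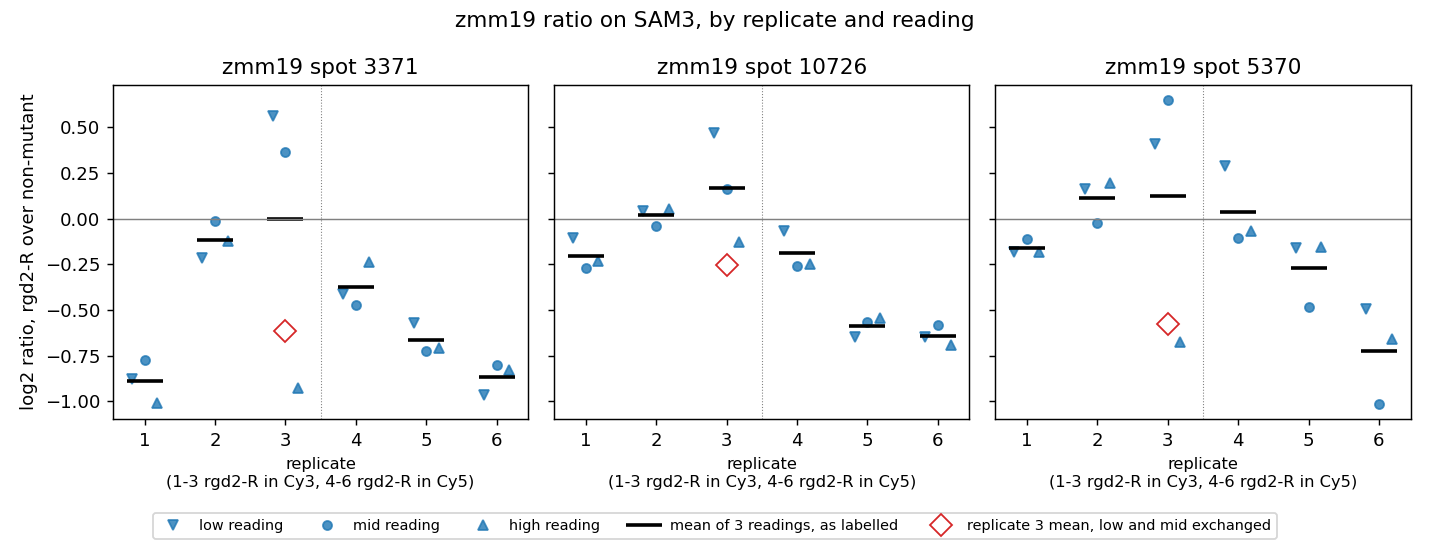
log2 ratio of rgd2-R over non-mutant (vertical axis) for the 3 zmm19 spots on SAM3, by replicate (horizontal axis). Blue marks are the low, mid and high readings, black bars are the means of the 3 readings as labelled, and open diamonds are replicate 3 after exchange of its low and mid channels. Replicates 5 and 6 lie below 0 on every spot, and the readings of replicate 3 fall on both sides of 0.

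The zmm19 spots were also measured well above background, which the ratios alone do not show. Spot 10726 exceeded its local background by 927 to 15291 units (median 3836) in non-mutant channels and by 1627 to 8337 units (median 3994) in rgd2-R channels. Spot 3371 exceeded it by 487 to 10331 units (median 1792) in non-mutant and by 556 to 5209 units (median 1781) in rgd2-R channels. The ranges of the genotypes overlapped on both spots. With the readings of replicate 3 exchanged, the medians were 4354 (non-mutant) and 3487 (rgd2-R) units for spot 10726 and 2226 and 1748 units for spot 3371, and the ranges were the same. The dyes differ in brightness, so these units show that the gene was measured and are not compared between genotypes.

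Spot 5370 was dimmer relative to its background, at 58.3 to 1802 units (median 229) in non-mutant and 40 to 1015 units (median 227) in rgd2-R channels. It passed 100 units in 4 of 6 non-mutant and 5 of 6 rgd2-R channels. The median ratio of signal to background was 24.5 in non-mutant and 25.7 in rgd2-R for spot 3371, and 36.1 and 43.9 for spot 10726. It was 4.35 and 4.12 for spot 5370. After the exchange these ratios were 35.2 and 24.9 for spot 3371, 50.5 and 43.9 for spot 10726, and 6.95 and 4.07 for spot 5370. The 2 spots far above background were thus also the 2 with the more negative mean ratios. No zmm19 spot was saturated: the highest single signal was 25995 units.

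The direction of zmm19 was followed under other readings of the dye labels, because replicates of SAM3 did not all correlate positively over the whole array. As labelled, replicates 1 and 3 correlated at -0.54 over all 16000 spots. After the exchange they correlated at 0.62, while replicates 2 and 3 correlated at -0.34 and replicates 1 and 2 at -0.24. Replicates 4 and 6 then correlated with replicate 1 at 0.15 and 0.32, and with replicate 3 at 0.16 and 0.25. With replicate 2 they correlated at -0.22 and -0.16. Replicate 5 correlated at -0.03, 0.02 and -0.18 with replicates 1, 2 and 3. The direction of replicate 2 against replicates 1 and 3 was not tested and is not settled, even though the labels state the dyes.

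With the exchange and replicate 2 turned (multiplied by -1), zmm19 was -0.39 on the log2 scale, the same to 2 decimals as with replicate 2 unturned, since its own value in that replicate was near 0. With the exchange and replicates 1 and 3 turned instead, zmm19 was -0.09. In that setting spot 3371 was -0.09, spot 10726 was -0.16 and spot 5370 was -0.02. With the high reading of replicate 3 exchanged in place of the other 2 readings, zmm19 was -0.23. Without replicate 3 the limma estimate for zmm19 was -0.34. All of these values lay below 0, and turning replicates 1 and 3 brought them closest to 0.

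**Figure D2:**
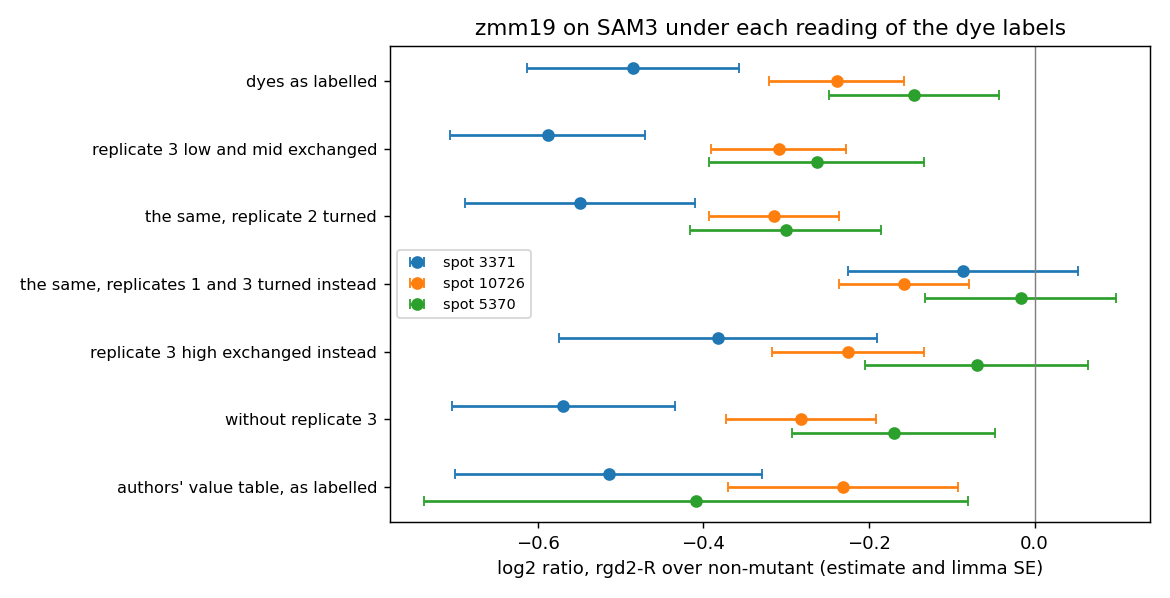
Fitted log2 ratio of rgd2-R over non-mutant (horizontal axis) with its limma standard error, for the 3 zmm19 spots. Rows are 7 treatments of the dye labels and of replicate 3 (vertical axis). Points lie between -0.59 and -0.02, and those with replicates 1 and 3 turned lie nearest to 0.

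No SAM3 spot passed a Benjamini-Hochberg adjusted p of 0.05 for genotype in limma's moderated test over all 16000 spots, as labelled or after the exchange, so no zmm19 spot did either. At an unadjusted p under 0.05, 3 of 8 MADS box spots were counted as labelled, the zmm19 spots 3371 and 10726 as lower and the MADS67 spot 6119 as higher, beside 6.58% of all SAM3 spots (3.59% lower and 2.99% higher). After the exchange 2 of 8 were counted, both of zmm19, and lower, beside 7.41% of all spots (4.79% lower). Spots with the same sign in all 6 replicates numbered 0 of 8 as labelled, against 3.16% of all spots, and 1 of 8 after the exchange, against 4.49%. The choice of zmm19 used this contrast, so nothing is read from these counts.

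The genes most like zmm19 were taken as those whose gene-mean ratios correlated most with it over the 6 SAM3 replicates, among 592 other named genes. As labelled they were cenH3, the centromeric histone H3, at 0.99, lrk1 at 0.97, LOC732737 and der2 at 0.95, and the Polycomb gene fie2 at 0.95. After the exchange they were pdi12, of the protein disulfide isomerase family, at 0.99, CCamK and Agp2 at 0.95, and NFY2 and PP2C at 0.93. The lists share 0 genes, so which genes stood at the top turned on 1 replicate. How far each listed gene correlated with zmm19 in the other setting is not given. With 6 points a high value is common here: the 95th percentile over all named genes was 0.83 as labelled and 0.79 after the exchange. The fitted log2 ratio of cenH3 was -0.07 and that of pdi12 was -0.02 in these settings.

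With the offset of 50 units in the background correction, the other 5 MADS box genes on SAM3 had mean log2 ratios closer to 0 than zmm19. This order did not hold with plain background subtraction, where signals under 1 unit were set to 1. MADS67 was then 0.60, zmm16 and zmm27 0.43, ZAG1 0.40 and zmm31 -0.37, beside -0.38 for zmm19. The replicate SDs were 0.93, 1.60, 1.29, 0.52, 1.27 and 0.48 in that order. The authors' value table gave similar values. With no background correction the order held, at -0.29 for zmm19 against 0.17 for ZAG1, the largest of the others. Over all 8 spots the median was 0.02 as labelled and -0.02 after the exchange, and over all 16000 spots it was 0.00 in both settings. MADS67, a gene of the FRUITFULL type within the AP1 clade, gave -0.03, 0.08, 0.14, 0.11, 0.20 and 0.22 in replicates 1 to 6 (mean 0.12 ± 0.09 SD, n = 6; standard error 0.05). Its 5 positive replicates became 4 after the exchange, when replicate 3 was -0.50 and the mean 0.01 ± 0.27 (SD, n = 6). Without replicate 3 the limma estimate was 0.10, so the positive ratio was lost with the exchanged value and not with the replicate left out.

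ZAG1, a C class gene of the AGAMOUS type that acts in stamens and carpels, gave 0.07, 0.18, 0.16, -0.18, 0.18 and 0.29 (mean 0.12 ± 0.16 SD, n = 6; standard error 0.07). After the exchange its replicate 3 was -0.50 and its mean 0.01 ± 0.29 (SD, n = 6). It behaved as MADS67 did in replicate 3: both were positive as labelled and near -0.50 after the exchange.

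The SEPALLATA-type genes zmm27 and zmm31, relatives of the E class, and the B class gene zmm16, of the PISTILLATA type, lay near 0. zmm27 gave 0.10, 0.10, 0.16, 0.17, -0.05 and -0.16 (mean 0.05 ± 0.13 SD, n = 6), and its mean after the exchange was -0.02. zmm16 gave 0.05, 0.45, 0.02, -0.19, -0.11 and 0.10 (mean 0.05 ± 0.22 SD, n = 6), and 0.08 after the exchange. Replicate 2 was the highest for zmm16, and without it the limma estimate was -0.02 as labelled and 0.02 after the exchange. zmm31 spread widely, from -0.56 in replicate 4 to 0.37 in replicate 2, with a mean of -0.02 ± 0.35 (SD, n = 6) under both treatments of replicate 3.

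**Figure D3:**
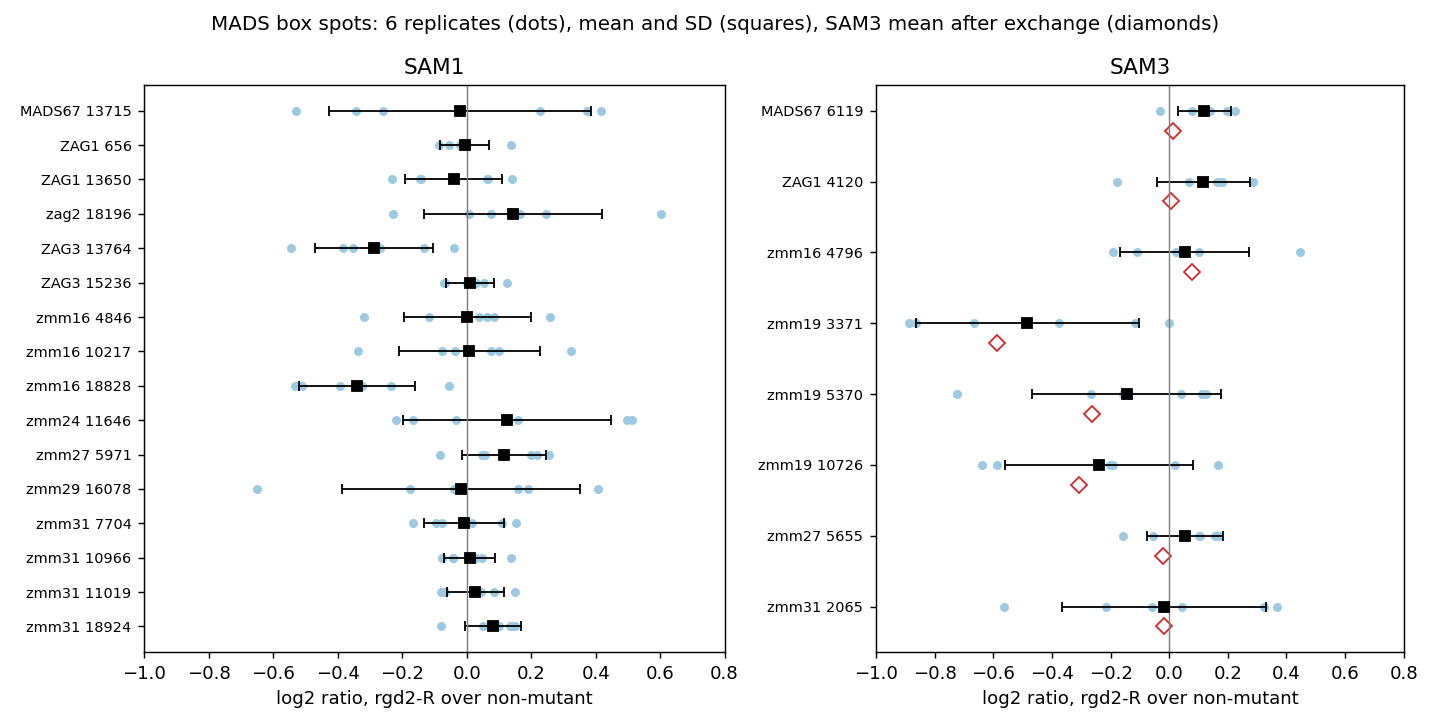
log2 ratio of rgd2-R over non-mutant (horizontal axis) for the 16 MADS box spots on SAM1 and the 8 on SAM3, each labelled with its gene and spot number. Dots are the 6 replicates as labelled, squares with bars are the mean and SD, and open diamonds are SAM3 means after the exchange. Spot means run from -0.34 to 0.14 on SAM1 and from -0.48 to 0.12 on SAM3 as labelled.

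SAM1 carried no zmm19 spot. There, with the offset of 50 units, the gene means of the 9 MADS box genes lay between -0.14 and 0.14 on the log2 scale, 4 above 0 and 5 below, while 50.9% of all 583 named genes on that array lay above 0. Correlations between SAM1 replicates ran from -0.18 to 0.39 over all spots. The median log2 ratio of the 16 spots was 0.00, as was that of all 19200 spots. The median size regardless of sign was 0.02 for the 16 spots and 0.07 for all spots.

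Among genes of the ovule and carpel, zag2, which is related to the SEEDSTICK group, had the largest mean on SAM1. Its log2 ratios were 0.08, -0.23, 0.25, 0.17, 0.01 and 0.60 in replicates 1 to 6 (mean 0.14 ± 0.28 SD, n = 6; standard error 0.09). Replicate 6 was the highest and replicate 2 lay below 0. Without replicate 6 the limma estimate for zag2 was 0.06, below those of zmm24 (0.10) and zmm27 (0.11) in the same setting. ZAG1 had a mean of -0.02 ± 0.10 (SD, n = 6), with -0.01 for its spot 656 and -0.04 for its spot 13650. The EST of spot 13650 was spotted on SAM3 too, as spot 4120, whose mean was 0.12 as labelled and 0.01 after the exchange.

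ZAG3, an AGL6-like gene known as bearded-ear for its mutant inflorescence, gave 0.04, -0.25, -0.13, -0.16, -0.10 and -0.23 when its spots were averaged (mean -0.14 ± 0.10 SD, n = 6; standard error 0.06). Its 2 spots differed. Spot 13764 gave -0.04, -0.55, -0.27, -0.35, -0.13 and -0.38 (mean -0.29 ± 0.18 SD, n = 6; standard error 0.08), so all 6 replicates were below 0. Spot 15236 had a mean of 0.01 ± 0.07 (SD, n = 6) and a median signal of 11.5 units over background in non-mutant channels, too close to background to carry a ratio. The gene mean thus averages a measured spot with one that held little signal.

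The B class gene zmm16 showed the same division. Its gene mean was -0.11 ± 0.12 (SD, n = 6; standard error 0.06). Spot 18828 gave -0.39, -0.23, -0.53, -0.51, -0.05 and -0.32 (mean -0.34 ± 0.18 SD, n = 6; standard error 0.07), again with all 6 replicates below 0. Spots 4846 and 10217 had means of 0.00 ± 0.20 and 0.01 ± 0.22 (SD, n = 6), and passed 100 units in 3 of 6 non-mutant and 2 of 6 rgd2-R channels each. Spot 18828 passed it in all channels, with a non-mutant median of 1375 units. On SAM3 the zmm16 spot 4796, which as labelled passed 100 units in 3 of 6 channels of each genotype, had the mean of 0.05 given above. zmm29, the other PISTILLATA-type gene, ranged from -0.65 in replicate 2 to 0.41 in replicate 3 (mean -0.02 ± 0.37 SD, n = 6).

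MADS67 ranged as widely on SAM1, with -0.34, -0.53, 0.42, 0.23, 0.37 and -0.26 in replicates 1 to 6 (mean -0.02 ± 0.41 SD, n = 6). Its replicates split 3 above and 3 below 0, each at least 0.23 away from it, so the mean near 0 averages replicates of both signs, with the largest SD of any MADS box spot. In zmm29 too, replicates 1 and 2 were lowest and replicate 3 was highest. The mean of 5 leaf primordium markers on SAM1 was also lowest in replicate 2, at -0.23, and highest in replicate 3, at 1.65, while it was 0.36 in replicate 1 and 0.00 to 0.16 in replicates 4 to 6. All 5 of these genes had means above 0, beside 50.9% of all named genes on that array. Single replicates were mixed: yab14 lay below 0 in 4 of 6, ns2 in 3, yab9 and yab10 in 2 and rs2 in 1. The mean of 3 meristem markers ran from -0.12 to 0.23 and that of 4 green leaf markers from -0.04 to 0.06. The part of these differences in the MADS67 and zmm29 ratios was not tested.

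The SEPALLATA-type genes of SAM1 were zmm24, zmm27 and zmm31. zmm24 gave 0.16, 0.51, 0.50, -0.22, -0.17 and -0.03 (mean 0.13 ± 0.32 SD, n = 6; standard error 0.07 from limma). The 3 replicates with rgd2-R in Cy3 were all positive and the 3 with rgd2-R in Cy5 were all negative, so the orientations did not overlap. zmm27 gave 0.22, -0.08, 0.06, 0.05, 0.26 and 0.20 (mean 0.12 ± 0.13 SD, n = 6; standard error 0.06), although its spot 5971 passed 100 units in 0 of 6 channels of either genotype. The same EST on SAM3, spot 5655, passed it in 2 of 6 non-mutant and 1 of 6 rgd2-R channels as labelled. The 4 zmm31 spots had means of -0.01 to 0.08 and a gene mean of 0.03 ± 0.06 (SD, n = 6).

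In limma, 0 of 19200 SAM1 spots passed an adjusted p of 0.05 for genotype. At an unadjusted p under 0.05, 2 of 16 MADS box spots were counted, ZAG3 spot 13764 and zmm16 spot 18828, both lower, beside 14.8% of all SAM1 spots in either direction and 8.12% lower. The same 2 of 16 spots kept 1 sign in all 6 replicates, beside 6.94% of all spots. The set was chosen with earlier results of both arrays known, and nothing is read from the counts.

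The dye term, which is independent of the genotype contrast in a balanced swap, could be tested. It compares ratios with rgd2-R in Cy5 against those with rgd2-R in Cy3. For zmm24 it was -0.53 (standard error 0.13, adjusted p = 0.339 in limma), the smallest adjusted p of any MADS box spot on SAM1, where 0% of all spots passed. For zmm19 spot 10726 it was -0.47 (standard error 0.16, adjusted p = 0.722 in limma), and no SAM3 spot passed either, as labelled or after the exchange. At an unadjusted p under 0.05, 1 of 16 MADS box spots was counted on SAM1, against 10.2% of all spots, and 1 of 8 on SAM3 as labelled, against 6.56%. After the exchange it was 0 of 8, against 6.62%. A dye effect was thus not detected for a MADS box gene, with 3 replicates in each orientation. The orientations did not overlap for 3 of 16 spots on SAM1 (zmm24, zmm16 spot 4846 and zmm31 spot 7704), beside 16.5% of all spots. On SAM3 this was so for 0 of 8 as labelled, beside 11.5%, and for 1 of 8, the MADS67 spot, after the exchange, beside 13.1%.

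How many MADS box spots carried signal in a vegetative meristem was described with 100 units over local background as the limit. On SAM1, 6 of 16 spots (37.5%) exceeded it in all 6 replicates of both genotypes, against 47.8% of all spots. They belonged to ZAG1 (13650), zag2, ZAG3 (13764), zmm16 (18828), zmm24 and MADS67. Some of these genes have known roles in flowers, and signal from related transcripts on their spots was not told apart. The share of all named genes with at least 1 such spot is not given, so no count of genes is read. On SAM3, 2 of 8 spots (25%) exceeded it, both of zmm19, against 38.5% of all spots. The smallest means, on dim spots, are no measure of equal levels, because the offset of 50 units added to both channels draws ratios near background towards 0.

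The spots that were bright on SAM1 lay between a non-mutant median of 394 units for zag2 (141 to 586) and 2164 units for MADS67 (463 to 5758), each against its own background. ZAG1 spot 13650 had a median signal over background of 7.51 in non-mutant and 7.26 in rgd2-R channels, while its EST on SAM3 had 2.42 and 2.60. MADS67 had 13.0 in both genotypes on SAM1 and, on another EST, 1.78 and 2.42 on SAM3. The same gene was thus measured well on 1 array and poorly on the other. On SAM1, 2 spots, ZAG1 spot 656 and zmm27 spot 5971, never exceeded 100 units in either genotype.

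**Figure D4:**
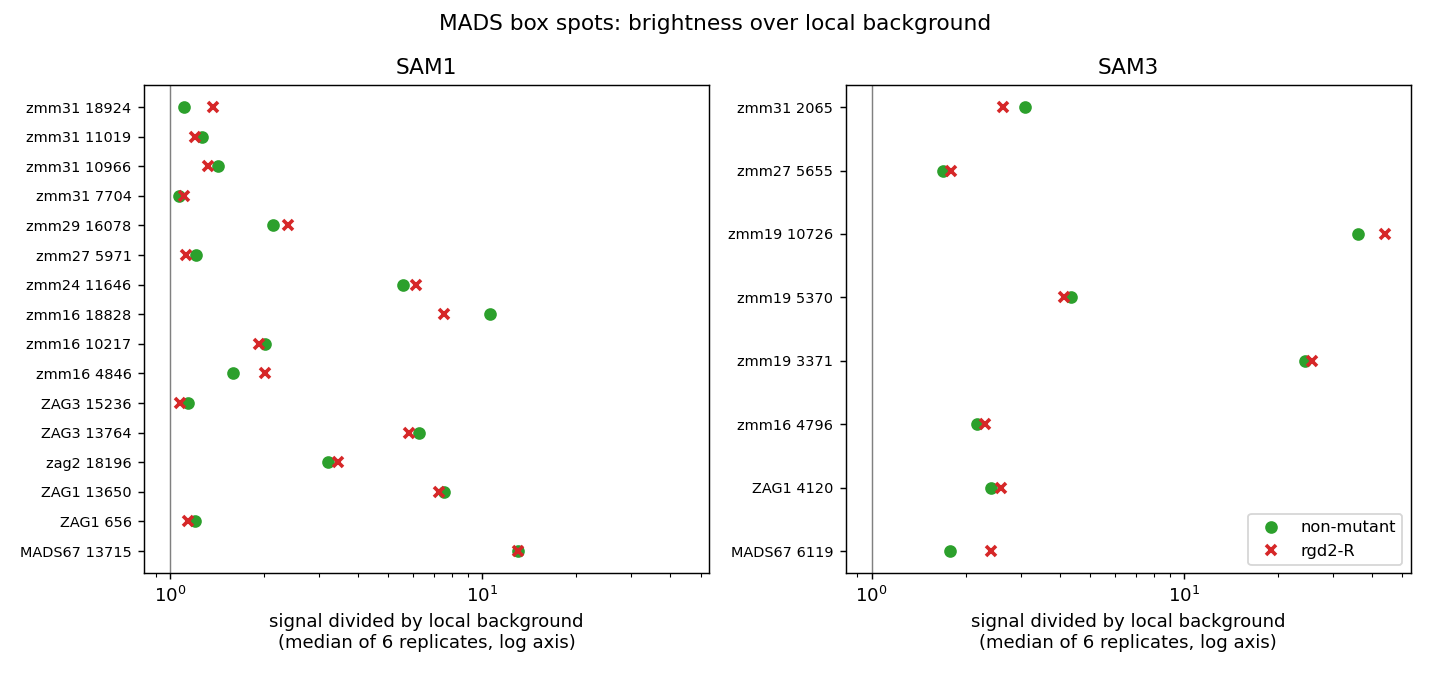
Median over 6 replicates of signal divided by local background (horizontal log axis) for each MADS box spot, in non-mutant (circles) and rgd2-R (crosses) channels, dyes as labelled. The line at 1 marks signal equal to background. The zmm19 spots 3371 and 10726 lie at 24.5 or more in both genotypes, while 6 spots on SAM1 lie below 1.4 in both.

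Among related genes outside the naming rule, zap1, of the AP1 type, had 5 spots on SAM1 and a gene mean of 0.00 (standard error 0.05 in limma, SD 0.09, n = 6). A list of other flowering and inflorescence genes had 7 members on SAM1, namely bd1, tb1, zap1, an1, ra3, BA1 and lg2. Of these, 4 lay above 0 and 3 below, between -0.13 and 0.08, with a median of 0.01 against 0.00 over all named genes. None of the 7 passed the adjusted test (smallest adjusted p = 0.423 in limma, 0% of all genes and spots called, 0 of 7 at an unadjusted p under 0.05, against 12% of named genes). On SAM3 the list held an1, a gene of gibberellin synthesis, and DLF1, a bZIP gene of the floral transition. They stood at -0.05 and -0.16 as labelled and at 0.18 and -0.01 after the exchange, with 0 passing. Both genes moved upward with the exchange, as did zmm16 (0.05 to 0.08), whereas MADS67, ZAG1, zmm19 and zmm27 moved downward. zmm31 stayed at -0.02.

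Marker lists of the tissue were set beside zmm19 on SAM3. The mean log2 ratio of 5 meristem genes ran from -0.14 in replicate 6 to 0.07 in replicate 3 as labelled, and that of 3 green leaf genes from -0.13 to 0.06. That of 7 leaf primordium genes ran from -0.07 in replicate 5 to 0.43 in replicate 6. zmm19 was lowest in replicate 6 (-0.74) and next lowest in replicate 5 (-0.51). After the exchange replicate 3 stood at -0.25 for meristem, 0.16 for leaf primordium and -0.31 for green leaf genes. The part of these differences in the zmm19 ratio was not tested.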

How the data were processed

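For each spot, dye and reading the authors deposited a raw intensity and a local background intensity, per the file headers. They also deposited processed values on a natural log scale. How these were normalized was not stated in the labels or headers. That the log is natural was inferred from the slope of the processed values on ln of signal minus background (median 0.915, range 0.714 to 1.11).

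Signals were corrected with normexp (offset 50), normalized by loess within each hybridisation, and averaged over 3 readings. limma 3.58.1 under R 4.3.3 fitted genotype and dye terms to all spots of an array, and was tested on simulated data. Ratios are on the log2 scale, mutant over non-mutant. The arrays were fitted apart, and spots of a gene were averaged. Values with a replicate left out are genotype estimates of this fit. They weight both dye orientations equally and can differ from plain means of the remaining replicates. Standard errors are those of this fit, taken after the dye term and with moderated variances. They can therefore be smaller than the replicate SD alone would give. p-values are two-sided and measure only the spread between these hybridisations.

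Symbols came from the platform annotation: 1800 SAM1 spots had 1 gene, 23 several and 17377 none, and on SAM3 these numbers were 1159, 1 and 14840. Every MADS box gene found is described, with all replicates for zmm19 and for up to 4 further genes per array with the largest ratios. Some other members are given in full too. Members, lists and alternatives were chosen with earlier results of these data known. Alternatives covered background, normalization, dim spots, single readings, the authors' table, the dye term, each replicate, and the direction of SAM3 replicates. No sequence or coordinate is printed, since none was used.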

Additional observations from a re-analysis of the deposited data

Results flagged for a closer look

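ZAG1 spot 656 on SAM1 had a log2 ratio of 0.14 in replicate 5, apart from the other replicates, which lay between -0.08 and 0.00. The gap was 0.641 of the whole range, above Dixon's 95% critical value for 6 samples. The spot never exceeded background by 100 units. Among 29 spots and gene means examined this was the only one with a sample apart, where chance gives about 1 in 20.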

How the results depend on the processing

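zmm19 stayed below 0 under all 21 alternatives other than those joining the exchange with a left-out replicate, between -0.40 and -0.09 on the log2 scale. Leaving out 1 replicate gave -0.36 to -0.21 as labelled and, chosen after seeing the data, -0.46 to -0.32 after the exchange. The exchange of the high reading and the turning of replicates 1 and 3 were also chosen after seeing the data. The authors' table gave -0.38 for zmm19, but moved the dimmer SAM3 genes away from 0: MADS67 to 0.61, zmm27 to 0.45, zmm16 to 0.44, ZAG1 to 0.38 and zmm31 to -0.38. On SAM1, plain background subtraction moved zmm27 to 1.15, zmm31 to 0.50, zmm16 to -0.35 and ZAG1 to 0.16. Spot 5370 changed sign once, to 0.00 in the low reading alone.

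Counts of spots over background depended on the limit. On SAM1, 3 rather than 6 rgd2-R spots passed with signal over 2 times background in place of 100 units. On SAM3, 4 rather than 2 spots passed in rgd2-R and 4 rather than 2 in non-mutant channels at 50 units. The share of all spots passing these other limits is not given, so nothing is read from these counts. ZAG3 spot 13764 stayed between -0.41 and -0.22 and zmm16 spot 18828 between -0.43 and -0.29. Over single genes, 17 of 142 alternative values on SAM1 and 29 of 162 on SAM3 changed sign, all without a test.

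The genotype estimates were fitted to ratios of rgd2-R over non-mutant RNA of the same hybridisation, so they already use this pairing. No paired analysis was possible beyond this because the ratios are already paired within a hybridisation, which leaves no separate groups to pair. Dim spots limit all values near 0.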
